A study of Homo sapiens with 12 samples.

Results

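The miRNAs described here come from 4 hairpins, miR-223, miR-142, miR-21 and miR-22, which are known for a high level in monocytes or for a role in myeloid maturation. Members were taken by name: every mature arm of these hairpins that both deposited tables list. Of 8 possible arms, 7 were listed, out of 233 mature miRNAs found in both tables and 314 found in either. The arms were miR-223-5p, miR-223-3p, miR-142-5p, miR-142-3p, miR-21-5p, miR-21-3p and miR-22-3p. miR-22-5p was listed in neither table.

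Small noncoding RNA was sequenced from the human monocytic cell line Mono Mac 6 (MM6), either wild-type or carrying a 5-lipoxygenase knockout (5-LO KO). The knockout cells were CRISPR/Cas9 clones with a frameshift in ALOX5, the gene of 5-LO, and the labels do not say which clone gave which library. All cells were differentiated with TGFβ at 1 ng/mL and calcitriol at 50 nM for 72 h. One set of each genotype also received lipopolysaccharide (LPS), the bacterial surface molecule sensed by Toll-like receptor signalling, at 1 µg/mL for 6 h. This gave 4 groups of 3 libraries, 12 in all: wild-type, 5-LO KO, wild-type with LPS and 5-LO KO with LPS. Of each group's libraries the tables give only the mean normalized count, so no spread between libraries is given and no replicate test was run here, and every comparison below is a comparison of the authors' means. Differences are called higher or lower mean, with 95% intervals that cover the counting error of the reads alone. Reads amplified by PCR without molecular identifiers are not independent molecules, so the true uncertainty is wider. ALOX5 mRNA is not a small noncoding RNA and was not measured, so the knockout could not be checked in these libraries. In bulk RNA of this kind, fewer cells with a miRNA and less of it per cell cannot be told apart.

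A miRNA gene is transcribed as a long primary RNA, from which Drosha cuts a hairpin and Dicer removes the loop. The resulting duplex holds a 5p and a 3p arm, and Argonaute keeps mainly one of them, whose seed pairs with target mRNAs. miR-223 and miR-142 are largely restricted to blood cells, and miR-223 is best known from granulocytes and monocytes. miR-21 is abundant in many cell types and is known to respond to inflammatory signals, and miR-22 is widely expressed and has been linked to monocytic differentiation.

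The mature sequences of 6 of the 7 arms are shown because the arms of one hairpin are compared with each other below, and because the seed decides which other miRNAs could share targets. They come from RefSeq (GRCh38.p14), read 5′ to 3′, with the seed (bases 2 to 8) in capitals.

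miR-223-5p: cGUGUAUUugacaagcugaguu

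miR-223-3p: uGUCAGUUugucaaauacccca

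miR-142-5p: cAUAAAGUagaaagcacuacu

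miR-142-3p: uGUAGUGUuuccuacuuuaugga

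miR-21-5p: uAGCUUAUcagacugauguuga

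miR-22-3p: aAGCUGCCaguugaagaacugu

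The 6 seeds were all different, so the arms form no common seed family. In the RefSeq table miR-590-5p shares the seed of miR-21-5p and miR-5590-3p shares that of miR-142-5p, but neither was listed in the 2 tables of means. None of the other arms shown shared its seed with another entry of that table. These 6 arms were 21 to 23 bases long, and counts were compared between arms without a length correction.

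The hairpins of miR-223 and miR-142 are shown whole, from the same source, with both arms in capitals and the loop between them in lower case.

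mir-223: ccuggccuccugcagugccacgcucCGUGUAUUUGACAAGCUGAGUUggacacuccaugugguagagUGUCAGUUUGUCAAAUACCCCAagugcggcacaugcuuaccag

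mir-142: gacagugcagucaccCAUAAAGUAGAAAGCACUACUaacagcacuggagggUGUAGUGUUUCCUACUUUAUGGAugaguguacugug

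The loop between the arms was 20 bases in mir-223 and 15 bases in mir-142, within hairpins of 110 and 87 bases. Each of the 6 mature sequences matched the GRCh37 genome, the build named in the submitters' processing notes as hg19, at exactly 1 place. The mir-223 hairpin lay on chromosome X from 65238712 to 65238821 on the plus strand. All 4 annotated transcripts of the noncoding host MIR223HG that overlap it do so with an exon. At the 3p arm itself 3 of these have an exon and 1 an intron. The mir-142 hairpin lay on chromosome 17 from 56408593 to 56408679 on the minus strand, overlapping an exon of MIR142HG. On the opposite strand it lay in an intron of 6 transcripts of the antisense RNA TSPOAP1-AS1. The mir-21 hairpin, from 57918627 to 57918698 on chromosome 17, plus strand, overlapped 10 transcripts of the protein-coding gene VMP1, each at an exon. miR-22-3p lay on the minus strand of chromosome 17 from 1617208 to 1617229. It overlapped 32 MIR22HG transcripts, 30 of them at an exon. The 3 hairpins and the miR-22-3p arm all lay within the bounds of longer host genes, 3 of the 4 hosts being noncoding.

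The levels spanned almost 2 orders of magnitude, and miR-21-5p stood far above the other arms in every group. Its mean normalized count was 2499 in wild-type, 3885 in 5-LO KO, 2816 in wild-type with LPS and 3188 in 5-LO KO with LPS. It ranked 7 of 285 mature miRNAs in both groups without LPS and 8 of 262 in both groups with LPS, just below let-7a-5p. The counting standard error of these means lay between 28.5 and 37.1, since an estimated 7868 to 11678 reads stood behind each of them.

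miR-142-5p was the next arm in every group, with means of 323.3 in wild-type, 394.5 in 5-LO KO, 254.0 in wild-type with LPS and 372.0 in 5-LO KO with LPS. Its rank lay between 27 and 33, beside miR-26a-5p in 3 groups and between miR-19b-3p and miR-26b-5p in 5-LO KO with LPS. The third place went to miR-142-3p without LPS, at 97.9 in wild-type and 95.2 in 5-LO KO. With LPS it went to miR-21-3p, at 162.5 in wild-type and 177.6 in 5-LO KO.

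miR-223-3p, often the leading arm of its hairpin in myeloid cells, had means of 93.8 in wild-type, 74.3 in 5-LO KO, 60.4 in wild-type with LPS and 58.0 in 5-LO KO with LPS. Its rank lay between 53 and 68, and its mean was 13.6, 11.4, 9.81 and 6.52 times the median of the mature miRNAs above 0 in the same order of groups. The partner arm miR-223-5p had similar means of 80.1, 77.5, 62.4 and 46.9, below miR-223-3p in wild-type without LPS and in 5-LO KO with LPS and above it in the other two groups. miR-22-3p had means of 50.7 in wild-type, 79.1 in 5-LO KO, 55.4 in wild-type with LPS and 79.3 in 5-LO KO with LPS. In both treatments its knockout mean was the higher one.

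Not all places in this order were separated by the counting error. In wild-type cells miR-142-3p and miR-223-3p did not differ beyond it (log2 ratio 0.06, 95% interval -0.17 to 0.29), nor did miR-223-3p and miR-223-5p (0.23, -0.02 to 0.47). In 5-LO KO cells the 4 arms miR-22-3p, miR-223-5p, miR-223-3p and miR-21-3p followed one another within the counting error. The first 2 places were separated beyond it in all 4 groups. Summed over all mature miRNAs, the 7 arms took 3.13% in wild-type, 4.13% in 5-LO KO, 3.74% in wild-type with LPS and 3.63% in 5-LO KO with LPS. These shares are lowered by the 2 arms of miR-3607, a hairpin annotated as a snoRNA. Without those arms the shares were 5.53%, 6.43%, 6.44% and 5.90%.

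**Figure D1:**
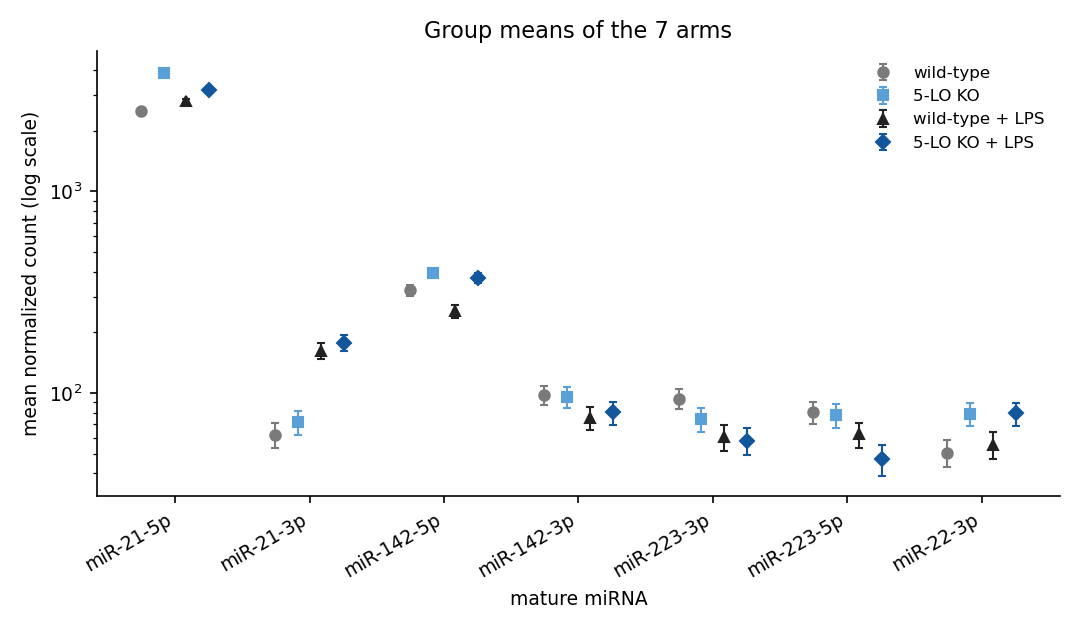
Mean normalized count of each arm (log axis) in the 4 groups, each point being the authors' mean of 3 libraries and each bar its 95% counting interval. miR-21-5p lies between 2499 and 3885 in all groups, and miR-21-3p moves from 62.0 and 71.7 without LPS to 162.5 and 177.6 with LPS.

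The myeloid label of the list was checked against marker miRNAs. Of 15 named myeloid and blood miRNAs, 5 are arms described here. The other 10 were all listed in at least one table, with summed means of 6408 in wild-type, 8130 in 5-LO KO, 8537 in wild-type with LPS and 13514 in 5-LO KO with LPS. With LPS the most abundant of these was miR-146b-5p, at 3704 in wild-type and 7241 in 5-LO KO. Without LPS it was miR-181a-5p, at 2173 in wild-type and 2387 in 5-LO KO. There miR-146b-5p was at 1268 in wild-type, also below miR-155-5p, and at 2131 in 5-LO KO. Without miR-146b-5p the sums of the other 9 were 5140, 5999, 4833 and 6272 in the same order of groups. The tables with and without LPS were normalized separately. These sums were not rescaled between them, so they set no direction with LPS. Over the 4 groups miR-181a-5p lay between 1780 and 2415 and miR-155-5p between 1358 and 1998. miR-16-5p lay between 829.6 and 1095, miR-181b-5p between 385.1 and 469.7 and miR-146a-5p between 66.9 and 554.9. The remaining 4 were low: miR-342-3p at 3.13 to 7.83, miR-29a-3p at 4.56 to 7.79, miR-503-5p at no more than 0.798, and miR-424-5p, listed with LPS only, at no more than 1.97. These 4 were thus below the neuronal miR-9-5p in every group. The lymphocyte marker miR-150-5p, all 4 erythroid names including miR-451a, the liver and serum marker miR-122-5p and all 5 muscle names were not listed. The muscle names are spellings of miR-1, miR-133a and miR-206. Of 2 platelet and endothelial names, miR-126-5p was listed with LPS only, at 1.24 in wild-type and 0.513 in 5-LO KO. Of 6 epithelial names, miR-200c-3p and miR-203a were listed, at no more than 3.11. Of 4 stromal and smooth muscle names 3 were listed, led by miR-143-3p at 58.7 in wild-type, 53.2 in 5-LO KO, 50.1 in wild-type with LPS and 35.9 in 5-LO KO with LPS. miR-199a-3p lay between 13.5 and 19.7 and miR-145-5p at no more than 0.513. Of 4 neuronal names, miR-9-5p and miR-128 were listed, the latter at 5.88 to 7.19. The names miR-128 and miR-128-3p, both among these, stand for the same miRNA. miR-9-5p had a mean of 16.2 in wild-type, 42.3 in 5-LO KO, 19.7 in wild-type with LPS and 21.2 in 5-LO KO with LPS. The erythroid and lymphocyte markers were thus absent from the lists, while miR-143-3p reached the level of miR-22-3p in wild-type cells. The part of miR-9-5p and miR-143-3p expression in the differences of the arms was not tested.

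The effect of the 5-LO knockout on the arms was compared within each table, since the 2 tables were normalized separately and share no library. Without LPS, miR-21-5p and miR-22-3p had higher means in 5-LO KO cells, each by about the same factor, while miR-223-3p had a lower mean. miR-21-5p was 1.55-fold higher (log2 0.64, interval 0.59 to 0.68) and miR-22-3p 1.56-fold higher (log2 0.64, 0.35 to 0.94). miR-142-5p was higher by log2 0.29 (0.16 to 0.41) and miR-223-3p had log2 -0.34 (-0.59 to -0.08). The intervals of miR-223-5p, miR-142-3p and miR-21-3p included 0.

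These values must be read against a general shift, because most mature miRNAs had higher means in the knockout. Among miRNAs with means of at least 10 in both genotypes, the median log2 ratio of 5-LO KO to wild-type was 0.17 without LPS and 0.15 with LPS. Relative to that median, without LPS, miR-21-5p stood at 0.46 (0.42 to 0.51) and miR-22-3p at 0.47 (0.17 to 0.76). On this scale miR-142-5p was at 0.11, with an interval of -0.01 to 0.24, and miR-223-3p at -0.51 (-0.77 to -0.25). The signs of miR-21-5p, miR-22-3p and miR-223-3p without LPS were the same under all 3 other scalings tried.

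A mean at least 1.5-fold higher in the knockout was found for 2 of the 7 arms without LPS, miR-21-5p and miR-22-3p. Of the 111 mature miRNAs with an average of the genotype means of at least 10, 26 or 23.4% were past the same threshold, so the share among the arms was near the background. No arm was at least 1.5-fold lower, against 5 of 111 or 4.5% of the background. The median log2 ratio of the arms was 0.21, beside 0.17 over all 111. With the median miRNA set to 0, no arm passed the threshold in either direction, and the background changed from 26 higher and 5 lower to 14 higher and 9 lower.

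With LPS the knockout difference of miR-21-5p was smaller and that of miR-142-5p larger. miR-142-5p was 1.46-fold higher in 5-LO KO (log2 0.55, interval 0.42 to 0.69) and miR-22-3p 1.43-fold higher (log2 0.52, 0.23 to 0.81). miR-21-5p was higher by log2 0.18 (0.14 to 0.22), which relative to the median miRNA was 0.02 (-0.02 to 0.07). With equal sums of mature miRNAs it turned to -0.06. miR-223-5p had log2 -0.41 (-0.73 to -0.09), and here miR-223-3p was at -0.06 (-0.36 to 0.25). The arm of miR-223 whose interval lay below 0 was thus a different one in each table. Within a table the log2 ratios of the 2 arms did not differ beyond counting error. Their difference, 3p minus 5p, was -0.29 (-0.66 to 0.08) without LPS and 0.35 (-0.09 to 0.80) with LPS. Between the tables it changed by 0.64 (0.06 to 1.22). No arm reached 1.5-fold in either direction, against 20 of 108 mature miRNAs or 18.5% higher and 5 or 4.63% lower. The median log2 ratio of the arms was 0.13, beside 0.14 over all 108. With the median miRNA set to 0 the background split into 10 higher and 13 lower, in place of 20 and 5.

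**Figure D2:**
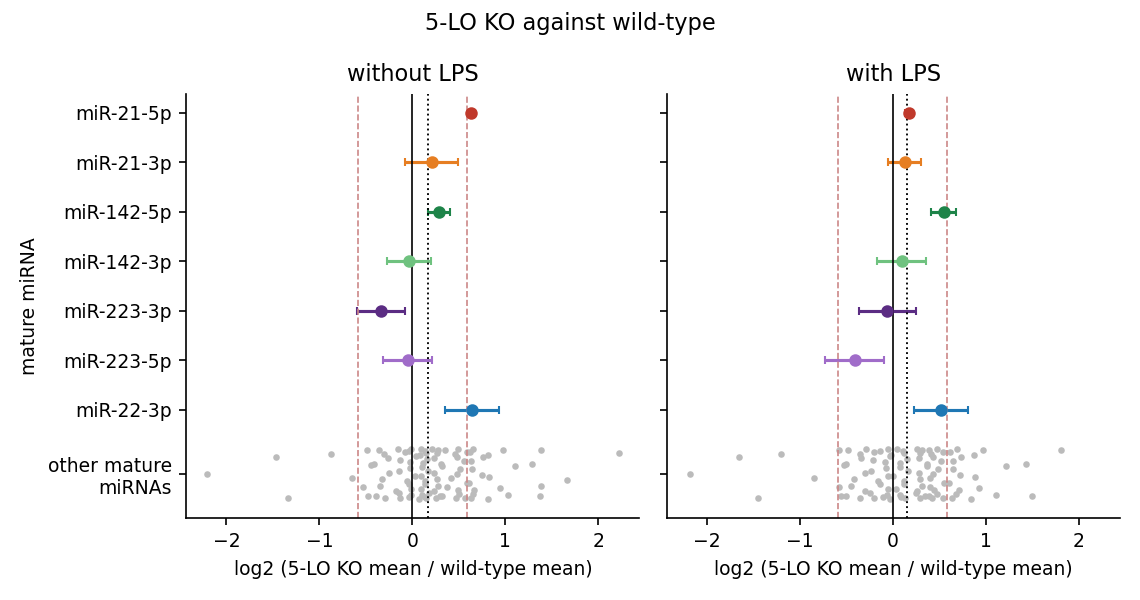
Log2 ratio of the 5-LO KO mean to the wild-type mean for each arm, without and with LPS, with 95% counting intervals as bars. Grey points are the other mature miRNAs with an average mean of at least 10, the dotted line is the median of all mature miRNAs at 10 or more in both genotypes (0.17 and 0.15) and the dashed lines mark 1.5-fold. miR-21-5p and miR-22-3p lie past the dashed line without LPS and no arm does with LPS.

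The difference between the knockout ratios with and without LPS was computed for each arm. For miR-21-5p it was -0.46 (interval -0.52 to -0.40), and under the 3 other scalings it ranged from -0.55 to -0.35. Its interval lay below 0 each time. Over 100 mature miRNAs with means of at least 10 in all 4 groups, this was the 9th lowest difference, and the median absolute difference was 0.24. For miR-142-5p it was 0.26 (0.08 to 0.45), but 0.17 with an interval of -0.02 to 0.35 when the mature sums were made equal. For the other arms the intervals included 0, except that miR-223-5p reached -0.46 (-0.87 to -0.04) with equal mature sums. Whether any of these differences exceeds the spread between libraries was not tested.

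The response to LPS was compared within each genotype, across the 2 tables. For this the median log2 ratio of mature miRNAs with a mean of at least 10 in both tables was set to 0, which took off -0.27 in wild-type and -0.27 in 5-LO KO. One arm stood out. miR-21-3p was 3.15-fold higher with LPS in wild-type (log2 1.66, interval 1.42 to 1.90) and 2.99-fold higher in 5-LO KO (log2 1.58, 1.35 to 1.82). It ranked 3 of 104 in wild-type and 3 of 103 in 5-LO KO. In both genotypes the first 2 were miR-146a-5p and miR-146b-5p, miRNAs known to be induced through NF-κB and to target adaptors of Toll-like receptor signalling. miR-146a-5p went from 66.9 to 468.2 in wild-type and from 100.1 to 554.9 in 5-LO KO. With the means as deposited, with no scaling across tables, miR-21-3p was 2.62-fold higher in wild-type and 2.48-fold higher in 5-LO KO.

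The 5p arm of the same hairpin behaved otherwise. miR-21-5p was 1.36-fold higher with LPS in wild-type (log2 0.44, 0.40 to 0.48) and at log2 -0.01 (-0.05 to 0.03) in 5-LO KO. With equal mature sums these values were 0.31 and -0.25, and as deposited 0.17 and -0.29. The wild-type value was above 0 under all 3 scalings, and the size in both genotypes depended on the scaling. In 5-LO KO the value was below 0 under all 3 scalings, but the main interval included 0. The interval was -0.29 to -0.21 with equal mature sums and -0.33 to -0.25 as deposited. Whether the 5-LO KO value passed counting error thus depended on the scaling. miR-22-3p was at 0.40 (0.08 to 0.71) in wild-type and 0.28 (0.01 to 0.54) in 5-LO KO. With equal mature sums these values were 0.27 (-0.05 to 0.58) and 0.04 (-0.23 to 0.31), and as deposited 0.13 (-0.19 to 0.44) and 0.003 (-0.26 to 0.27). Its values thus passed counting error only under the median scaling.

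Neither blood-restricted hairpin had a higher mean with LPS beyond counting error in wild-type. miR-223-3p was at -0.37 (-0.64 to -0.10) in wild-type, rank 100 of 104, and at -0.09 (-0.38 to 0.21) in 5-LO KO. miR-223-5p was at -0.09 (-0.37 to 0.18) in wild-type and at -0.45 (-0.76 to -0.14) in 5-LO KO. miR-142-5p was at -0.08 (-0.22 to 0.06) in wild-type and at 0.19 (0.07 to 0.31) in 5-LO KO. The 5-LO KO value was above 0 beyond counting error under this scaling but at -0.05 with equal mature sums. In wild-type miR-142-5p was at -0.21 (-0.35 to -0.08) with equal mature sums and at -0.35 (-0.48 to -0.21) as deposited. miR-142-3p was at -0.11 (-0.36 to 0.13) in wild-type and 0.03 (-0.23 to 0.28) in 5-LO KO. As deposited, all 4 arms of miR-223 and miR-142 had lower means with LPS in both genotypes, while the median scaling placed both miR-142 arms above 0 in 5-LO KO.

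One arm, miR-21-3p, was at least 1.5-fold higher with LPS in each genotype. Of all mature miRNAs compared, 8 of 104 or 7.69% were past this threshold in wild-type and 10 of 103 or 9.71% in 5-LO KO. No arm was at least 1.5-fold lower, beside 1 of 104 or 0.962% in wild-type and 6 of 103 or 5.83% in 5-LO KO. The median log2 ratio of the arms was -0.08 in wild-type and 0.03 in 5-LO KO, where that of all miRNAs is 0 by construction. With the means as deposited the background split was 5 higher and 7 lower in wild-type, and 6 higher and 21 lower in 5-LO KO. With equal mature sums it was 7 and 3 in wild-type, and 6 and 20 in 5-LO KO.

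**Figure D3:**
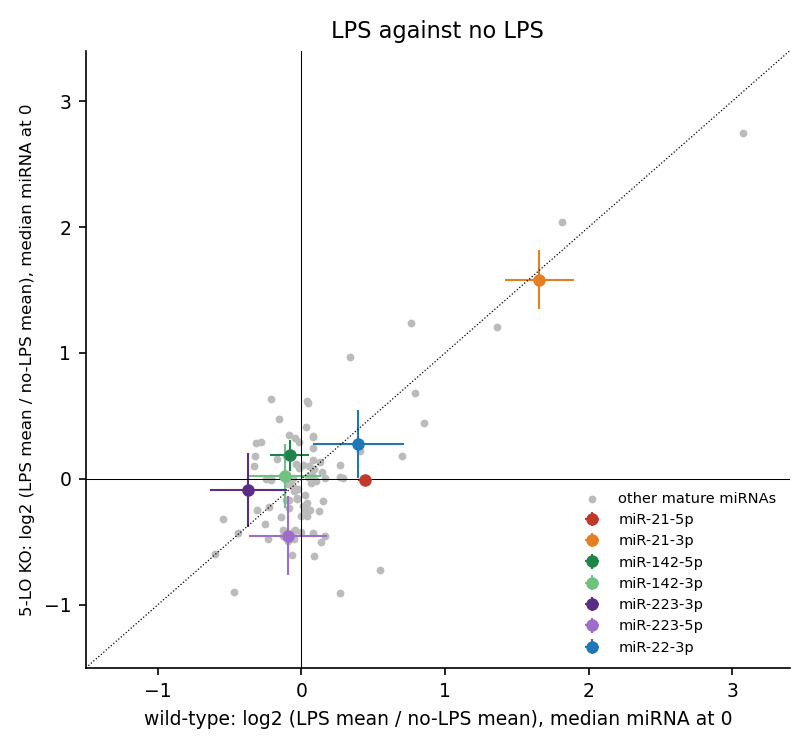
Log2 ratio of the LPS mean to the mean without LPS in wild-type (horizontal) and 5-LO KO (vertical), with the median mature miRNA at 0, bars being 95% counting intervals and the dotted line equal values. miR-21-3p, at 1.66 and 1.58, is set apart from the other 6 arms, which lie between -0.45 and 0.44.

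The ratio of the 3p to the 5p arm of one hairpin is taken within one group, so it depends on no scaling between groups or tables. The 3 hairpins with both arms listed differed widely. miR-223 gave nearly equal arms, with a 3p to 5p ratio of 1.17 in wild-type, 0.959 in 5-LO KO, 0.968 in wild-type with LPS and 1.24 in 5-LO KO with LPS. The 95% interval included 1 in all 4 groups. miR-142 was 5p-dominated, with miR-142-5p 3.30-fold above miR-142-3p in wild-type, 4.14-fold in 5-LO KO, 3.38-fold in wild-type with LPS and 4.64-fold in 5-LO KO with LPS. miR-21 was the most one-sided, with miR-21-5p 40.3-fold above miR-21-3p in wild-type and 54.2-fold in 5-LO KO, but only 17.3-fold and 17.9-fold with LPS.

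The 3p share of the miR-21 arms was thus 2.42% in wild-type and 1.81% in 5-LO KO, and 5.46% and 5.28% with LPS. The log2 change of its 3p to 5p ratio with LPS was 1.22 (0.97 to 1.46) in wild-type and 1.59 (1.36 to 1.83) in 5-LO KO. Among 15 hairpins with both arms at 10 or more in all groups, this was the highest change in both genotypes. The median over these hairpins was -0.0004 in wild-type and -0.08 in 5-LO KO. These hairpins include miR-3607, annotated as a snoRNA, whose arms had almost equal means in every group. The wild-type median was the value of miR-3607. The hairpin next to it in both was miR-181a, at 0.79 and 0.95, and the lowest in both was miR-221, at -1.07 and -1.20, where the 5p arm gained on the 3p arm. These 2 hairpins are named after their values were seen. The LPS change of miR-21 was larger in 5-LO KO than in wild-type by 0.38, with an interval of 0.04 to 0.72. For miR-223 the LPS changes were -0.28 (-0.66 to 0.11) in wild-type and 0.37 (-0.06 to 0.79) in 5-LO KO, and their difference was 0.64 (0.06 to 1.22). For miR-142 that difference was -0.13 (-0.53 to 0.27).

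Between genotypes the arm ratio of miR-21 differed less than it did with LPS, and that of miR-142 differed more. The 3p to 5p ratio of miR-142 was lower in 5-LO KO in both tables, by log2 -0.33 (-0.59 to -0.06) without LPS and -0.46 (-0.75 to -0.16) with LPS, the latter being the lowest change among the 15 hairpins. That of miR-21 was at -0.43 (-0.72 to -0.14) without LPS, the lowest of the 15, and at -0.05 (-0.24 to 0.13) with LPS. For miR-223 the changes were -0.29 (-0.66 to 0.08) and 0.35 (-0.09 to 0.80), neither beyond counting error on its own, although they differed from each other by 0.64, as given above for LPS. The medians over the 15 hairpins were 0.06 without LPS and 0.002 with LPS, the latter being the value of miR-3607. For miR-142 the 5p arm had the higher mean in the knockout in both tables, while the 3p means of wild-type and 5-LO KO were 97.9 and 95.2 without LPS and 75.1 and 80.2 with LPS.

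**Figure D4:**
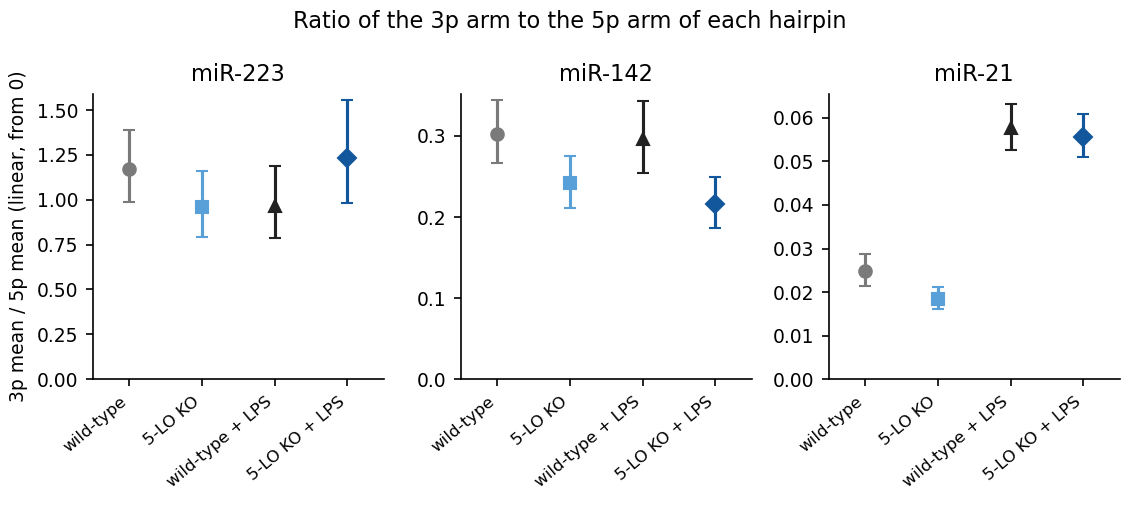
Ratio of the 3p mean to the 5p mean of miR-223, miR-142 and miR-21 in the 4 groups (linear axes from 0, a separate scale for each hairpin), with 95% counting intervals as bars. The miR-21 ratio is 0.0248 and 0.0184 without LPS and 0.0577 and 0.0557 with LPS.

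**Figure D5:**
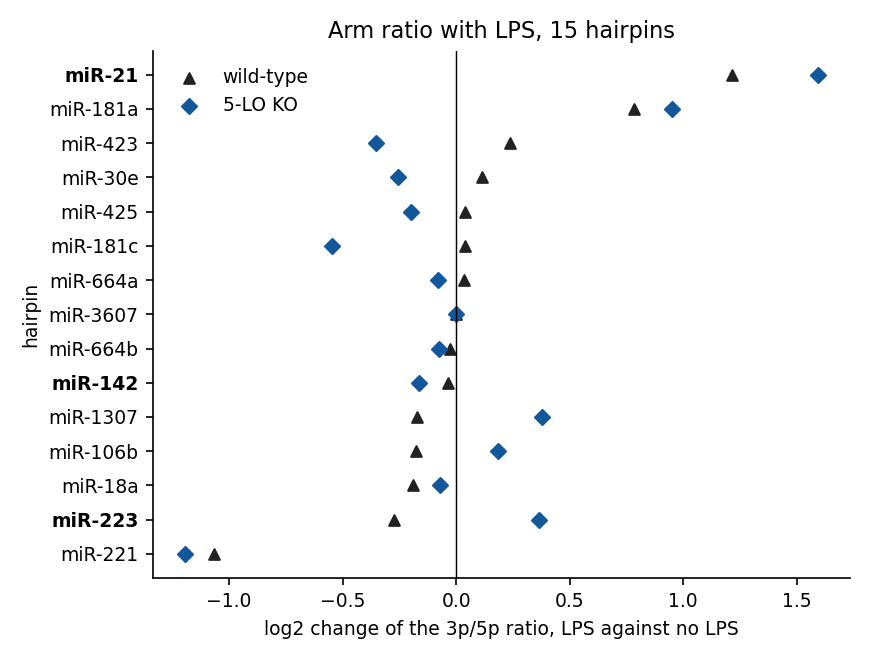
Log2 change of the 3p to 5p ratio with LPS for each of 15 hairpins, ordered by the wild-type value, with 1 point per genotype. miR-21 is at 1.22 and 1.59, and miR-142 at -0.03 and -0.16.

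For each other hairpin, the arm with the higher mean in wild-type without LPS was set against miR-21-5p, and these ratios shifted unevenly. For miR-223 this was the 3p arm, although the 5p arm had the higher mean in 5-LO KO and in wild-type with LPS. miR-21-5p exceeded miR-223-3p 26.6-fold in wild-type, and 52.3-fold in 5-LO KO, 46.7-fold in wild-type with LPS and 55.0-fold in 5-LO KO with LPS. Wild-type without LPS was therefore the group with the most miR-223-3p per miR-21-5p, and its interval of 23.7 to 29.9 did not meet those of the other groups. The excess over miR-142-5p was 7.73-fold, 9.85-fold, 11.1-fold and 8.57-fold in the same order. The excess over miR-22-3p stayed between 40.2-fold and 50.8-fold. miR-22-3p and miR-21-5p thus had about the same ratio in wild-type and 5-LO KO without LPS, at 49.3-fold and 49.1-fold.

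The tables also list the precursor of each hairpin as an entry of its own, and these entries were set against the sum of the listed arms. mir-22 had exactly the mean of miR-22-3p in all 4 groups, the only arm of this hairpin that is listed. mir-142 lay above the sum of its arms, by 6.50 in wild-type, 25.7 in 5-LO KO, 15.7 in wild-type with LPS and 17.6 in 5-LO KO with LPS. As a share of the arms this was 1.54%, 5.24%, 4.76% and 3.88%. mir-223 lay below the sum of its arms in every group, at 156.3 against 174.0 in wild-type, 137.8 against 151.8 in 5-LO KO, 114.1 against 122.7 in wild-type with LPS and 96.6 against 104.9 in 5-LO KO with LPS.

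mir-21 also lay below its arms, by 30.4 in wild-type, 35.2 in 5-LO KO, 98.9 in wild-type with LPS and 88.4 in 5-LO KO with LPS. Set against the miR-21-3p mean of the same group, these gaps came to 49.1%, 49.1%, 60.8% and 49.8%. A sum of arms above the precursor means that the entries do not hold the same reads, and how reads were given to each entry is not stated in the sources used here. Its part in the arm ratios was not tested. In wild-type, 63 hairpins had both arms listed and a precursor above 0, of which 32 had equal values within 0.01%, 11 had a higher precursor and 20 a lower one. In 5-LO KO these numbers were 23, 18 and 22 of 63. With LPS they were 26, 11 and 21 of 58 in wild-type and 28, 12 and 17 of 57 in 5-LO KO.

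The miRNAs whose pattern over the 4 groups came closest to each arm were found by the Euclidean distance of centred log2 means, among the 100 mature miRNAs with means of at least 10 in all groups. The nearest to miR-21-5p was miR-155-5p, a product of the inflammation-responsive BIC transcript, at a distance of 0.16, against a median distance of 0.56. Its means were 1358 in wild-type, 1998 in 5-LO KO, 1360 in wild-type with LPS and 1783 in 5-LO KO with LPS. miR-155-5p was also the nearest to miR-22-3p, at 0.18, and miR-22-3p itself was the third nearest to miR-21-5p, at 0.27, after let-7f-5p. Next after it for miR-22-3p were miR-3651 and miR-3615, both at 0.23. All of these had a higher mean in 5-LO KO than in wild-type in both tables. They were chosen for being close to miR-21-5p and miR-22-3p, which share this direction, so it follows from the choice. A higher 5-LO KO mean was also common, in 74 of 111 mature miRNAs without LPS and 67 of 108 with LPS.

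For the other arms the nearest patterns were different ones. miR-221-5p came closest to miR-21-3p, at 0.37, with means of 10.5 and 11.3 without LPS and 22.4 and 21.6 with LPS. It was followed by miR-181a-3p at 0.71 and miR-146b-5p at 0.77, against a median distance of 1.72. For miR-142-3p it was miR-181d, at 0.04, with miR-181b-5p at 0.08 and miR-92b-3p at 0.10. For miR-142-5p it was miR-92a-3p, at 0.13, with miR-425-5p at 0.14 and miR-26a-5p at 0.15. The nearest to miR-223-3p was miR-345-5p, at 0.14, followed by miR-17-5p and miR-7-5p. The nearest to miR-223-5p was miR-103a-3p, at 0.14, followed by miR-143-3p and miR-19a-3p. No arm had the partner arm of its own hairpin among its 3 nearest patterns. Only 3 of the 100 mature miRNAs are named for each arm, so a missing partner does not mark its pattern as unlike. No counting interval was computed for the distances. Whether the order of neighbours exceeds counting error was not tested.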

How the data were processed

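Small RNA libraries were prepared with a Lexogen kit, size selected for precursor and mature miRNA, sequenced single-end and annotated by the authors with omiRas on hg19. The deposited tables, 1 without and 1 with LPS, hold a signal for each noncoding RNA, which is the authors' mean of normalized counts over 3 libraries per genotype. They also hold the authors' fold changes and p-values, which were not used. What 1 read of each library adds to a mean was recovered from the low means. With steps fitted to these same means, all means up to 10, 352 to 439 per group, came out as whole reads within 0.65 units of the last of their 6 digits (plus 1e-07). The recovered size factors differed by 1.41-fold to 2.58-fold within a group. Counting intervals (95%) and approximate read numbers follow from them and were tested on simulated data. No test across libraries could be run from the means. Ratios used no pseudocount. Calls used 1.5-fold and an average mean of at least 10, or for LPS a mean of at least 10 in both tables. Alternatives were other scalings, thresholds, filters and pseudocounts. Named miRNAs were taken from the listed arms and their precursors, the 3 nearest patterns of each arm, neighbours in rank and the listed markers. The members and lists were chosen with earlier results of these data known. Of 314 mature names, 262 matched the RefSeq table, including 6 of the 7 arms. Hairpins and arms were placed by exact match to GRCh37 with GENCODE annotation. Python 3.11.15, numpy 2.4.6, pandas 2.3.3 and matplotlib 3.10.9 were used.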

Additional observations from a re-analysis of the deposited data

How the results depend on the processing

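No paired analysis was possible because the deposited columns are means of 3 libraries, so libraries with the same replicate number could not be followed. Leaving out a library was not run either, because each of the 28 arm means could be made up of reads of single libraries in 4 or more ways. Of 189 values recomputed under another setting, 150 moved by no more than their counting interval, or by no more than 1.5 times for a count, and 39 moved further. No value past 1.5-fold changed sign, but 12 smaller values did, and in 3 of these the reported interval had excluded 0. miR-21-5p in 5-LO KO against wild-type with LPS turned from 0.18 to -0.06 with equal mature sums. miR-142-5p with LPS against no LPS in 5-LO KO turned from 0.19 to -0.05 with equal mature sums and to -0.08 as deposited. The number of arms at least 1.5-fold higher in 5-LO KO without LPS changed from 2 to 0 with a 2-fold threshold, with equal sums of all noncoding RNAs, with equal sums of mature miRNAs and with the median mature miRNA at 0. With equal sums of mature miRNAs, the median log2 ratio of the arms with LPS turned from 0.13 to -0.11 and the number of arms at least 1.5-fold lower in 5-LO KO with LPS was 1. The number at least 1.5-fold lower with LPS against no LPS was 1 in wild-type as deposited, and 1 in 5-LO KO both as deposited and with equal mature sums. The share of the mature sum without miR-3607 was 5.53% in wild-type, 6.43% in 5-LO KO, 6.44% in wild-type with LPS and 5.90% in 5-LO KO with LPS. The share rises by construction when miR-3607 is left out of the sum, while the changes in the counts and the median also depend on the values. The changes of the 3p to 5p ratio moved by less than their intervals with 1 or 10 added to each mean. For the LPS changes these additions were chosen after seeing the data.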
